A study of Saccharomyces cerevisiae with 2 samples.

Results

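The 21 box H/ACA small nucleolar RNAs (snoRNAs) described here are pseudouridine guides of budding yeast. They were taken by name from a list that leaves out 8 other box H/ACA RNAs, which guide the peptidyl transferase centre, act in precursor cleavage or are encoded in introns. All 21 had listed nucleotides in both replicates, 461 of the 8666 positions listed in replicate 1 and 367 of the 18088 listed in replicate 2. A box H/ACA snoRNA folds into a pair of hairpins, the first followed by the H box and the second by an ACA triplet close to the 3' end. A pocket inside a hairpin pairs with the target RNA, and the pseudouridine synthase Cbf5, bound with Nop10, Nhp2 and Gar1, converts the chosen uridine. In a guide of the usual length the first hairpin lies mostly before the midpoint of the RNA and the second mostly past it. The nucleotides past the midpoint of the annotated RNA are called its 3' side below, and the others its 5' side.

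The samples were 2 iCLIP replicates of Dbp2p, a DEAD-box RNA helicase, from 1 Saccharomyces cerevisiae strain of genotype MATa his3Δ1 leu2Δ0 met15Δ0 ura3Δ0 with a DBP2-HTBH:kanMX6 allele. The cells were grown at 30 °C in YPD to an OD600 of about 1.0 and irradiated with UV light, and the tagged protein was recovered through a His-biotin tag. In iCLIP the protein is crosslinked to RNA and the nucleotide at which the cDNA stops is recorded. Both replicates belong to 1 group, nothing in the labels says that they came from separate cultures, and neither an input nor an untagged control was analysed here. The values therefore describe these 2 libraries, and no test between conditions could be made.

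The deposited value of a position is its share of the signal of its own RNA, given below in percent. The shares of an RNA sum to 100%, the reads behind them are not known, and a share says where on an RNA the signal lay and not how much of it there was. The ACA triplet itself could not be checked, because the listed nucleotide nearest to a 3' end was 7 nt away from it, in SNR80. The members were listed on the strand given by their systematic names, and none of their positions lay inside another annotated gene.

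All unbroken stretches of at least 6 nucleotides listed in either library that hold at least 1 nucleotide listed in both are printed here. The stretches consist mostly of nucleotides listed in 1 library. They leave out others listed in both, among them cytidine 189 of SNR31 and uridine 173 of SNR189. They are joined from the bases in the deposited tables, 5′ to 3′ on the RNA's strand with t for U, and capitals mark nucleotides listed in both replicates. Coordinates are those of sacCer3.
SNR3, nucleotides 42 to 48 (chrX:663790-663796, + strand): gaAgatc
SNR3, nucleotides 54 to 80 (chrX:663802-663828, + strand): atttAtTTGaacactCggtcttaTtcg
SNR5, nucleotides 24 to 33 (chrXV:842426-842435, + strand): ggatTAccat
SNR5, nucleotides 170 to 183 (chrXV:842572-842585, + strand): atcATtGgttcgct
SNR9, nucleotides 93 to 98 (chrXV:408037-408042, - strand): aaTtAc
SNR9, nucleotides 161 to 172 (chrXV:407963-407974, - strand): AccTaTcattag
SNR11, nucleotides 221 to 226 (chrXIII:652495-652500, + strand): atAatg
SNR11, nucleotides 230 to 235 (chrXIII:652504-652509, + strand): tTATga
SNR32, nucleotides 160 to 166 (chrVIII:381699-381705, + strand): gatATtg
The longer SNR3 stretch lies on the 5' side and carried 27.3% of that RNA's signal in replicate 1 and 56.2% in replicate 2, and the shorter one just before it carried 0.758% and 14.2%. The first SNR5 stretch lies near the 5' end and carried 10.7% and 38.9%, and the second, 34 to 21 nt from the 3' end, carried 28% and 34.7%. The SNR9 stretch 26 to 15 nt from the 3' end carried 43.3% and 14.2%, and the one near the middle of that RNA 6.40% and 17.5%. In SNR11 the stretch at 37 to 32 nt carried 51.1% and 1.65%, and the stretch at 28 to 23 nt carried 15.6% and 6.60%. The SNR32 stretch, 28 to 22 nt from the 3' end, carried 7.46% and 34.3%. By the rule that chose them, all printed stretches hold signal in both libraries, so this is not a result. Only 1 to 3 nucleotides of each stretch near the 3' end of SNR5, SNR9, SNR11 and SNR32 were listed in both. The larger share lay in replicate 1 for SNR9 and SNR11 and in replicate 2 for SNR5 and SNR32. Stretches near a 3' end that the rule left out include nucleotides 143 to 149 of SNR49, with 48.8% and 0%. Nucleotides 176 to 183 of SNR35 held 0% and 9.97%, and 975 to 982 of SNR86 held 2.63% and 11.7%.

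The number of listed nucleotides differed widely among the guides. Replicate 1 listed 5 to 55 per RNA with a median of 17, and replicate 2 listed 1 to 51 with a median of 15. Over all annotated snoRNAs the medians were 27 and 12. Per 100 nt of RNA the members' medians were 8.70 in replicate 1 and 6.35 in replicate 2 (7.52 ± 1.66, SD, n = 2), compared with 15.7 and 8.53 over all listed snoRNAs. The members made up 5.32% of all positions of replicate 1 and 2.03% of those of replicate 2, and 13 of 21 had more positions in replicate 1. Across the 21 RNAs the numbers of positions in the replicates had a Spearman's rho of 0.65 and a Pearson's r of 0.57 on the log2 scale. This is a description across RNAs that share the libraries and the unknown filters.

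Members were ranked by number of positions in each library and ordered by the worse of their ranks. The first 6 in this order were among the 11 of 21 that guide 25S rRNA, the RNA of the large subunit, and no other RNA. Within 1 library the order differed. SNR35, a guide of 18S rRNA, ranked 4 in replicate 2 with 34 positions. SNR83, also a guide of 18S rRNA, had 27 in replicate 1, more than the 26 of SNR5. SNR9 (chromosome XV, 407948 to 408134) had 55 and 23 positions. SNR3 (chromosome X, 663749 to 663942) had 51 and 41. SNR86 (chromosome XIII, 762110 to 763113) had 36 and 51, and at 1004 nt it is by far the longest of these RNAs. Per 100 nt SNR86 had 3.59 and 5.08 positions, below the members' medians of 8.70 and 6.35. SNR11 (chromosome XIII, 652275 to 652532) had 28 and 42 positions in all, SNR32 (chromosome VIII, 381540 to 381727) 28 and 19 and SNR5 (chromosome XV, 842403 to 842606) 26 and 28.  At the other end, SNR33 (chromosome III, 142364 to 142546) had 11 positions and then only 1, SNR43 (chromosome III, 107504 to 107712) 12 and 2, SNR81 (chromosome XV, 234346 to 234546) 5 and 8, and SNR84 (chromosome IV, 1492477 to 1493026) 8 and 6. The shares of these 4 RNAs rest on few nucleotides. In replicate 2 so do those of SNR36 with 5 positions, SNR49, SNR82 and SNR161 with 6 each, and SNR83 with 7. The remaining 12 of the 21 members had at least 10 positions in both replicates.

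In replicate 1 the signal lay mainly on the 3' side of the guides, and in replicate 2 it did not. The 3' side held 75.1% of the signal of an average member in replicate 1 and 47.7% in replicate 2 (61.4% ± 19.3, SD, n = 2). The medians were 77.3% and 41.0%. More than 50% of the signal lay on the 3' side in 18 of 21 members in replicate 1, where 89.5% of all listed snoRNAs had this, and in 7 of 21 in replicate 2, where 42.5% did. All 7 were among the 18. These counts are near the background of all snoRNAs in each library and say nothing particular to these guides, and the cause of the difference between the libraries was not tested. The RNAs with over 50% on the 3' side in both replicates were 7 of 21, beside 41.1% of the 73 snoRNAs listed in both. They were SNR9, SNR33, SNR36, SNR80, SNR81, SNR82 and SNR189. Another 11 had it in replicate 1 alone, and SNR35, SNR84 and SNR86 in neither. Of the 7, SNR33, SNR36, SNR81 and SNR82 had fewer than 10 positions in at least 1 library.

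**Figure D1:**
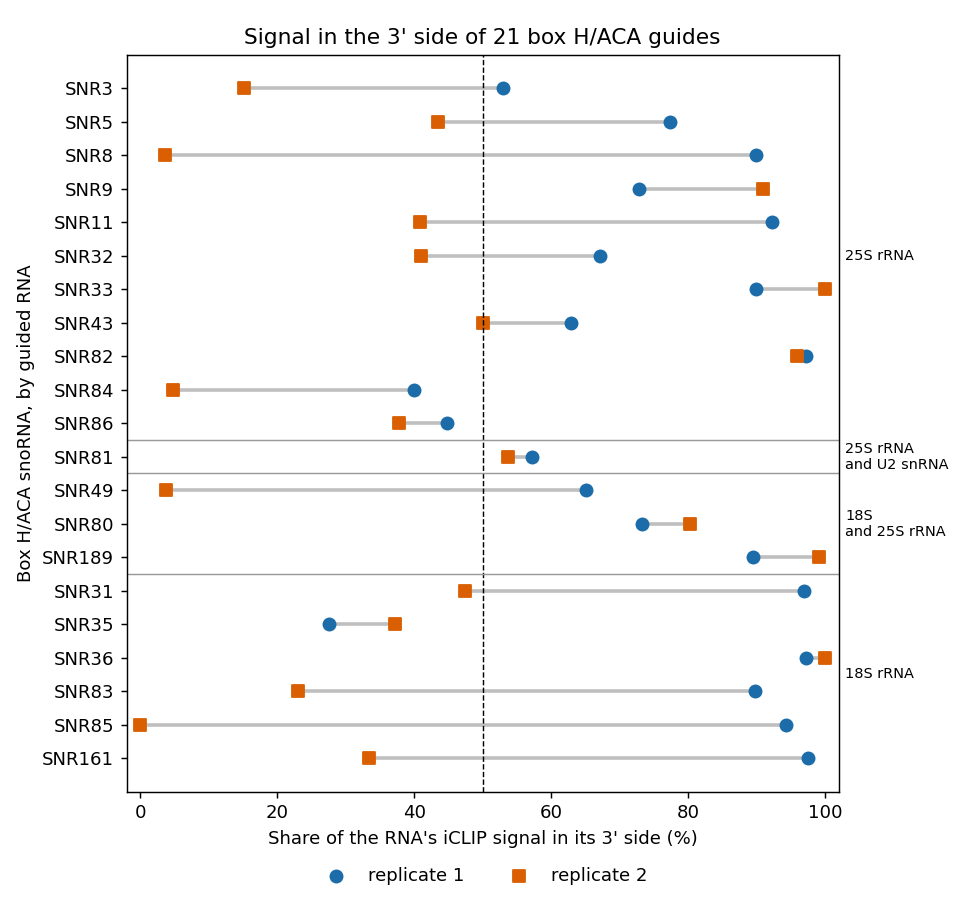
Share of each RNA's signal on its 3' side (x axis, percent) for the 21 guides (y axis, grouped by the RNA they guide), with circles for replicate 1, squares for replicate 2 and a dashed line at 50%. The circles of 18 RNAs lie right of the line and the squares of 7 do.

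The large subunit guides spread over nearly the whole range in replicate 2. Of the 11 members that guide 25S rRNA alone, 9 had over 50% of their signal on the 3' side in replicate 1 and 3 in replicate 2, with medians of 72.9% and 41.0%. SNR8 (chromosome XV, 832332 to 832521) had 90% and 3.57%, SNR11 92.2% and 40.8%, SNR3 53.0% and 15.1%, SNR5 77.3% and 43.5% and SNR32 67.2% and 41.0%. SNR9 had 72.9% and 91.0%, and SNR82 (chromosome VII, 316788 to 317055) 97.2% and 96%. SNR33 had 90% and 100%, the latter from its single nucleotide, and SNR43 63.0% and 50%. The long RNAs SNR84 and SNR86 were below 50% in both libraries, with 40% and 4.76% in SNR84 and 44.7% and 37.7% in SNR86. In replicate 2 they were not set apart, since SNR8 was below both and SNR3 was below SNR86. SNR81, which guides both 25S rRNA and the U2 spliceosomal RNA, had 57.1% and 53.8%.

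The small subunit guides had high 3' side shares in replicate 1, except SNR35, and spread from 0% to 100% in replicate 2. Of the 6 members that guide 18S rRNA alone, 5 had over 50% on the 3' side in replicate 1 and 1 in replicate 2, with medians of 95.6% and 35.3%. SNR85 (chromosome XIII, 67768 to 67938) had 94.3% in replicate 1 and none in replicate 2, although its 15 positions there were more than the 14 of replicate 1. SNR161 (chromosome II, 307185 to 307345) had 97.6% and 33.3%, SNR83 (chromosome XIII, 626349 to 626654) 89.8% and 23.1% and SNR31 (chromosome XV, 841958 to 842182) 97.0% and 47.4%. SNR36 (chromosome XV, 680685 to 680866) stood at 97.2% and 100%. SNR35 (chromosome XV, 759326 to 759529), the guide for a uridine of 18S rRNA that is then hypermodified, was the lowest of all in replicate 1 at 27.6% and had 37.2% in replicate 2. Of the 3 guides that act on both rRNAs, SNR189 (chromosome III, 178610 to 178798) had 89.6% and 99.2%, SNR80 (chromosome V, 52150 to 52320) 73.3% and 80.3%, and SNR49 (chromosome XIV, 716120 to 716284) 65.1% and 3.70%.

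**Figure D2:**
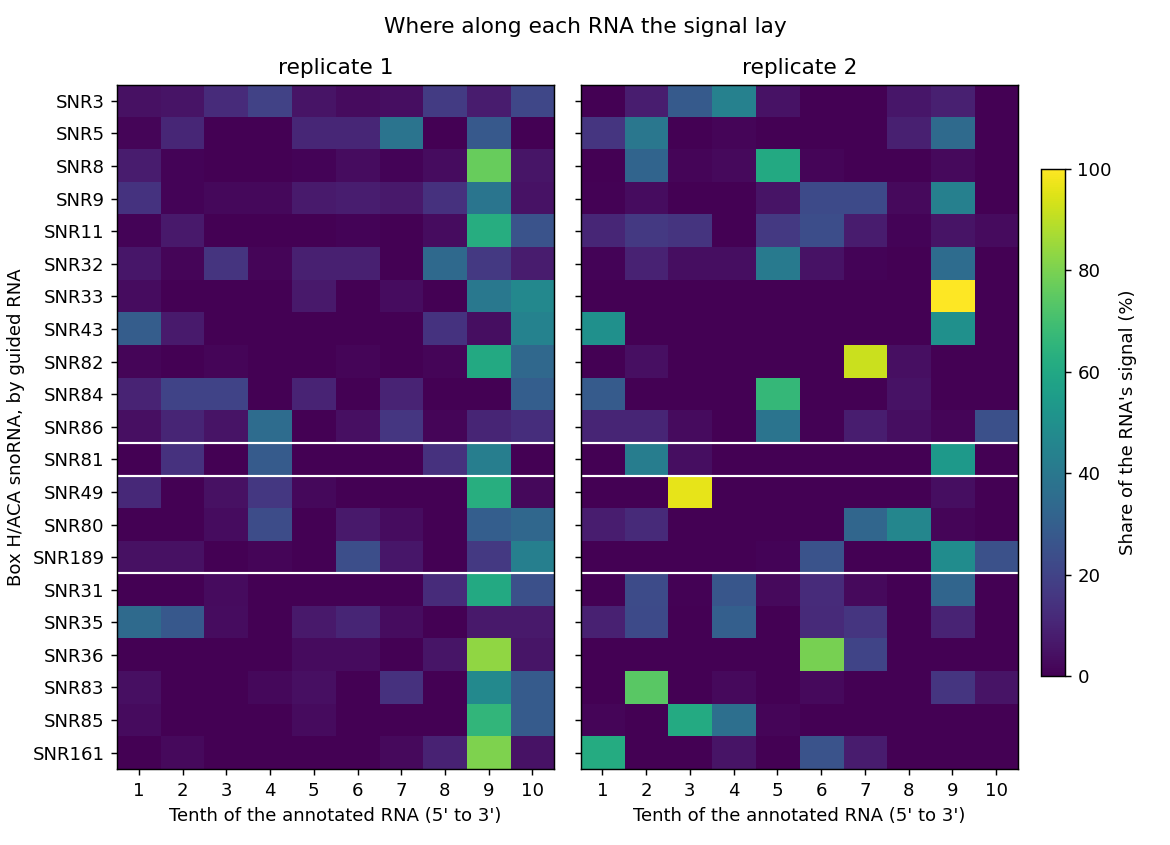
Share of each RNA's signal (colour, percent) in 10 equal segments of the annotated RNA from 5' to 3' (x axis) for the 21 guides (y axis), in replicate 1 (left) and replicate 2 (right). In replicate 1 the bright cells gather in the last 2 columns, and in replicate 2 they are scattered over the RNA.

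When each RNA was cut into 5 segments of equal length, an average member had 59.6% of its signal in the segment nearest the 3' end in replicate 1, where an even spread gives 20%. The other segments held 12.1%, 9.55%, 7.29% and 11.5% from the 5' end on. In replicate 2 the segments held 23.5%, 17.4%, 21.4%, 13.7% and 24.0%, close to even on average. Many single RNAs were nevertheless concentrated in replicate 2. One segment held over 50% of the signal in 13 of 21 members in replicate 1, beside 67.1% of all listed snoRNAs, and in 14 of 21 in replicate 2, beside 71.2%. In replicate 1 it was the segment nearest the 3' end in 12 of the 13 cases. In replicate 2 it was the segment nearest the 3' end in 3 RNAs, the one next to it in 2, and one of the others in 9.

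Counted from the 3' end, the signal of replicate 1 was concentrated in 3 bands. The bands of 10 to 19, 20 to 29 and 30 to 39 nt held 17.3%, 18.5% and 22.0% of an average member's signal, where an even spread gives 4.71% per band. The next band, 40 to 49 nt, held 4.87%, and each band from 50 to 149 nt held less than an even share. In replicate 2 the 10 to 19 nt band held 2.45%, the 20 to 29 nt band 7.56% and the 30 to 39 nt band 14.2%. That last band was the highest of the bands within 150 nt in both libraries, and in replicate 2 the 120 to 129 nt band followed with 8.85%. SNR33 gave all of its replicate 2 signal to the 30 to 39 nt band through 1 nucleotide.

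**Figure D3:**
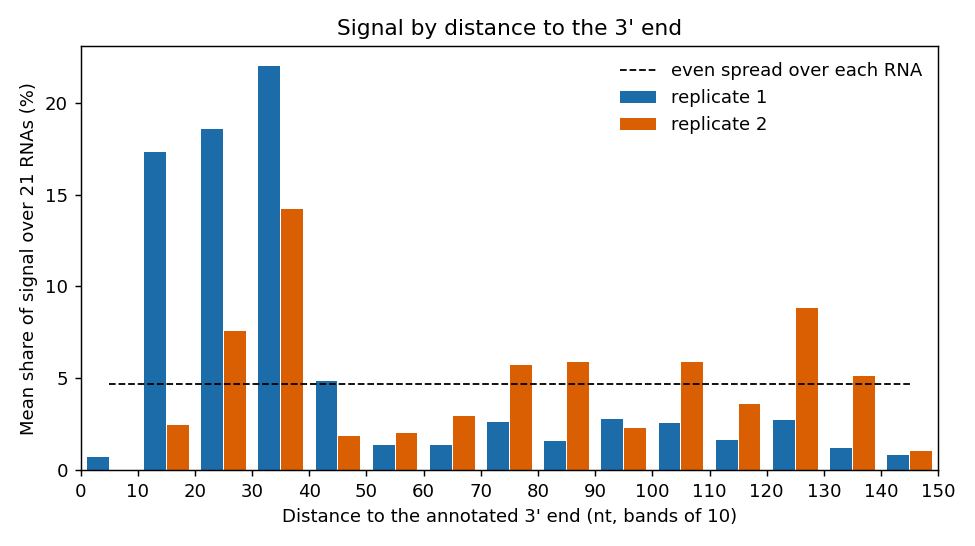
Mean share of signal over the 21 guides (y axis, percent) in bands of 10 nt from the annotated 3' end (x axis), for replicate 1 and replicate 2 as bars and an even spread over each RNA as a dashed line. Both libraries are above the line at 20 to 39 nt and highest at 30 to 39 nt, with 22.0% and 14.2%.

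The zone of 20 to 39 nt from the 3' end, chosen after the profile was seen, held more than an even share in both libraries on average. It had 40.5% of the signal in replicate 1 and 21.8% in replicate 2 (31.2% ± 13.3, SD, n = 2), where an even spread gives 9.43%. With the median in place of the mean, the shares were 32.6% and 10.3%, the second of them close to the even share. More than an even share was found in 18 of 21 members in replicate 1, beside 90.8% of all listed snoRNAs, in 13 of 21 in replicate 2, beside 61.6%, and in 11 of 21 in both, beside 56.2% of snoRNAs listed in both. Shares in replicate 1 and replicate 2 were 75.8% and 32.5% in SNR31, 47.8% and 35.2% in SNR32, 28% and 34.7% in SNR5, 22.2% and 43.4% in SNR9 and 42.9% and 53.8% in SNR81. In SNR36 they were 86.1% and 0%, in SNR161 75.6% and 0%, in SNR85 60% and 0% and in SNR82 59.2% and 0%. These examples have signal in the zone in both libraries or in replicate 1 alone, and other members differed. SNR43 had 3.70% and 50%, the latter from a single nucleotide. SNR3 had 7.58% and 8.83%, below its even share of 10.3% in both libraries. The wider zone of 15 to 59 nt held 60.7% and 27.9% (44.3% ± 23.2, SD, n = 2) against 21.2% for an even spread. Over 50% of the signal lay there in 14 of 21 members in replicate 1, beside 85.5% of all listed snoRNAs, and in 4 of 21 in replicate 2, beside 28.8%. Box C/D guides are shorter, so that for them an even spread gives 42.9%, and their mean was 81.0% and 43.5%. The 8 other box H/ACA snoRNAs, with an even share of 16.6%, had 61.1% and 28.5%.

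The signal-weighted median distance to the 3' end was also smaller in replicate 1 for most RNAs. Its median over the members was 37 nt in replicate 1, ranging from 19 nt in SNR33 to 679 nt in SNR86. In replicate 2 it was 125 nt, ranging from 25 nt in SNR43 to 588 nt in SNR86. Where the signal split evenly at the median, the smaller distance was taken. For SNR43 in replicate 2 this chose 25 nt over 208 nt, with 50% at each, and the counts below depend on that choice. The distance was smaller in replicate 1 in 15 of 21 members, beside 83.6% of snoRNAs listed in both. In 8 of 21 the replicate with the larger 3' side share was not the one with the smaller distance, for example SNR9 (44 and 71 nt) and SNR84. In SNR189 it was 28 nt in both libraries. It was smaller in replicate 2 in SNR35 (183 and 125 nt), SNR43 (47 and 25 nt), SNR81 (45 and 39 nt), SNR84 (321 and 310 nt) and SNR86 (679 and 588 nt). The first 10 nt held 3.51% and 6.88% of an average member's signal (5.19% ± 2.38, SD, n = 2), where an even spread gives 4.71%. SNR161 had 61.5% there in replicate 2 and none in replicate 1, and SNR43 had 29.6% in replicate 1 and 50% in replicate 2. The last 15 nt held 4.11% and 0.244% (2.18% ± 2.74, SD, n = 2). In replicate 1 they held 33.3% in SNR80 and 29.9% in SNR189, and SNR83 was the only member with any in replicate 2, with 5.13%.

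Adenosine carried the largest share of the signal on average. It held 52.1% in replicate 1 and 46.2% in replicate 2 (49.1% ± 4.17, SD, n = 2), followed by uridine with 32.5% and 31.3% (31.9% ± 0.830, SD, n = 2). Cytidine held 5.27% and 12.2% (8.76% ± 4.93, SD, n = 2) and guanosine 10.2% and 10.3% (10.2% ± 0.0723, SD, n = 2). Over all listed snoRNAs adenosine held 49.1% and 48.6%, and uridine 33.2% and 33.7%. Among listed positions counted once, 38.8% and 34.3% were adenosines and 36.9% and 33.0% were uridines. Those position shares pool all members, while the signal shares weight RNAs equally. With RNAs weighted equally for both, adenosine had 49.1% of the signal and 39.3% of the positions, averaged over the libraries. Uridine had 31.9% and 34.1%. By these averages the adenosines carried more signal per position than the uridines did. The base composition of the whole RNAs was not used here, so these shares are not a preference over the sequence. Whether the listed nucleotide is the first base of the cDNA or its neighbour is not given in the sources used here, which bears on every base named.

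**Figure D4:**
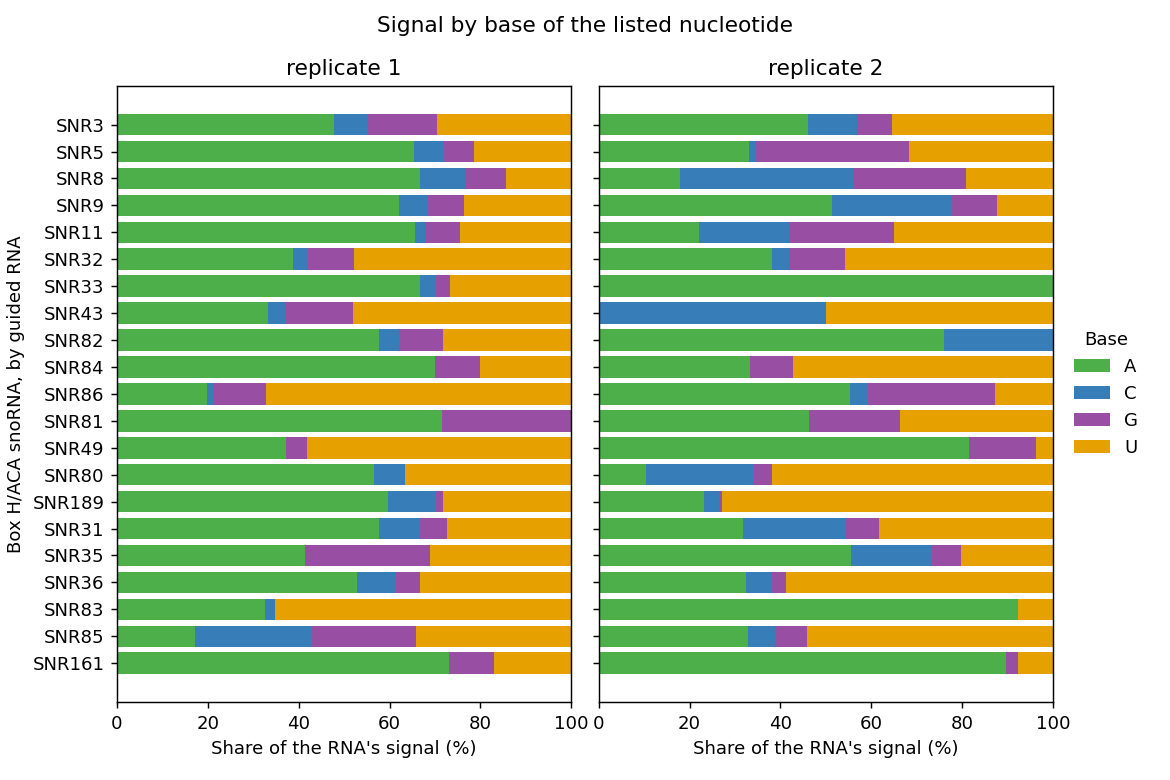
Share of each RNA's signal (x axis, percent) by the base of the listed nucleotide, for the 21 guides (y axis) in replicate 1 (left) and replicate 2 (right). Adenosine and uridine fill most bars, and cytidine is wider in replicate 2, for example in SNR8.

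Adenosine led in 15 of 21 members in replicate 1, beside 75% of all listed snoRNAs, in 10 of 21 in replicate 2, beside 58.9%, and in 7 of 21 in both, beside 43.8% of those listed in both. In SNR161 it held 73.2% and 89.7%, in SNR82 57.7% and 76%, in SNR9 62.1% and 51.4% and in SNR3 47.7% and 46.1%. In SNR86 it held 19.7% and 55.4%, while uridine held 67.1% and 12.9%, and in SNR83 adenosine held 32.7% and 92.3%. In SNR189 adenosine held 59.7% and 23.2% and uridine 28.4% and 72.8%. The leading base of an RNA thus often differed between the libraries, as did the nucleotides that carried its signal. On the 3' side adenosine held 52.3% of the signal in replicate 1 and 43.6% in replicate 2, and on the 5' side 51.5% and 48.5%.

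The strongest nucleotide of a guide carried a sizeable part of its signal. Its median share was 22.2% in replicate 1, from 10.6% in SNR3 to 55.6% in SNR8, and 27.6% in replicate 2, from 9.15% in SNR3 to 100% in SNR33. Of the 19 members with a single strongest nucleotide in replicate 1, 15 had it 15 to 59 nt from the 3' end, beside 88.9% of such snoRNAs, and it was an adenosine in 13 of the 19, beside 72.2%. Of the 20 in replicate 2, 3 had it there, beside 33.8%, and it was an adenosine in 10 of the 20, beside 57.7%. The median distance of these nucleotides from the 3' end was 34 nt in replicate 1 and 126.5 nt in replicate 2.

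In SNR8, adenosine 154 carried 55.6% in replicate 1 and was not listed in replicate 2, where guanosine 79 led with 21.4% and cytidine 24 had 20.2%. Cytidine 24 was the single SNR8 nucleotide in both lists, with 1.11% in replicate 1. In SNR31, adenosine 188 led replicate 1 with 39.4%, and its neighbour cytidine 189 had 6.06% there and 21.4% in replicate 2, second to uridine 90 with 26.6%. In SNR83, uridine 272 led replicate 1 with 18.4% and adenosine 55 led replicate 2 with 74.4%. In SNR161, adenosine 136 with 24.4% and adenosine 10 with 61.5% led. In SNR85, uridine 156 with 20% and uridine 40 with 29.4% led, and in SNR36 adenosine 148 with 25% and uridine 107 with 47.1%. The leading nucleotides of the libraries lay on opposite sides of the midpoint in 11 of the 18 members with a single leader in both, beside 55.9% of such snoRNAs. The 11 were SNR3, SNR5, SNR8, SNR11, SNR31, SNR32, SNR35, SNR83, SNR84, SNR85 and SNR161.

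**Figure D5:**
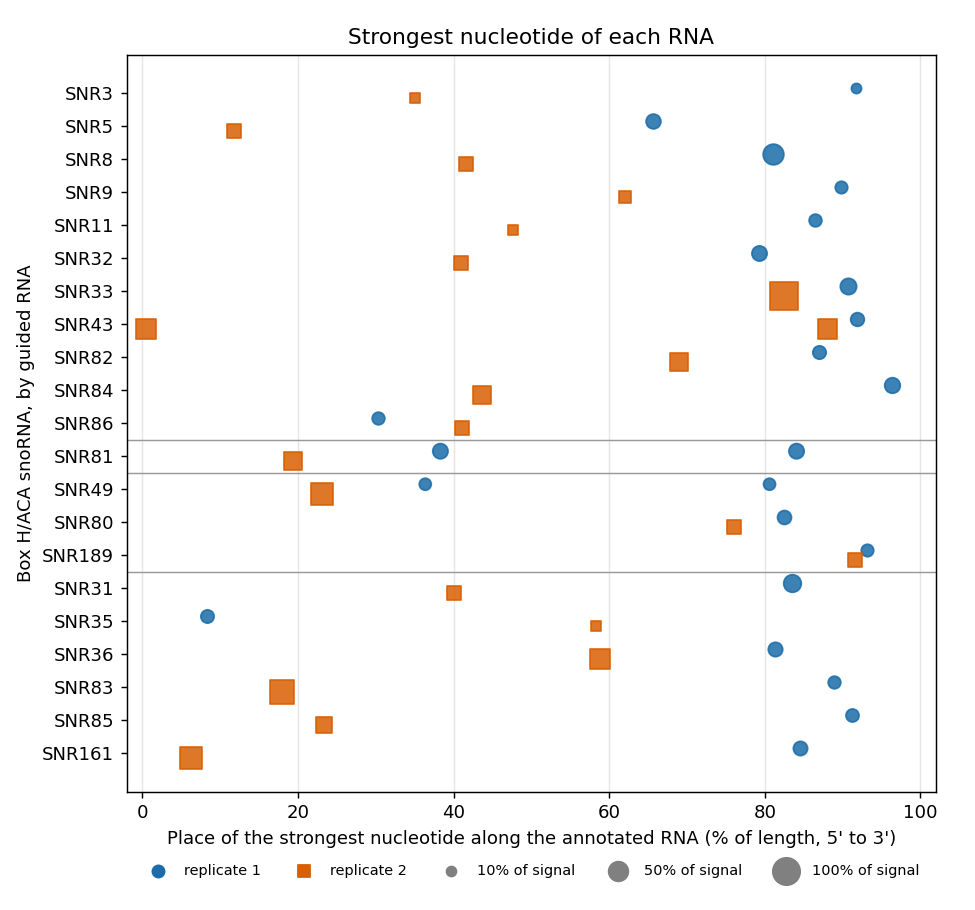
Place of the strongest nucleotide along each RNA (x axis, percent of length from 5' to 3'; y axis, the 21 guides), as circles for replicate 1 and squares for replicate 2 with area growing with its share of the signal, ties drawn as separate points. The circles gather near 80% to 100% of the length and the squares are spread over the RNA, and the pair of SNR189 lies closest together.

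The replicates had the same strongest nucleotide in 0 of 21 members, beside 2 of the 73 snoRNAs listed in both. SNR189 alone had leaders within 5 nt of each other, adenosine 176 with 17.9% in replicate 1 and uridine 173 with 24.8% in replicate 2. That is 1 of 21 members beside 5.48% of snoRNAs listed in both, and the median gap over the members was 75 nt. Uridine 173 of SNR189 also had 7.46% in replicate 1. The leader of replicate 1 was listed at all in replicate 2 in 2 of 21 members, beside 17.8% of snoRNAs listed in both. Adenosine 223 of SNR11, inside a stretch printed above, had 18.9% in replicate 1 and 1.65% in replicate 2. Adenosine 133 of SNR49, tied for the lead with uridine 60 in replicate 1 at 16.3%, had 3.70% in replicate 2. In the other direction the leader of replicate 2 was listed in replicate 1 in 3 of 21 members, SNR189, SNR33 and SNR49, beside 34.2% of snoRNAs listed in both. Adenosine 151 of SNR33 had 3.33% in replicate 1 and is its entire signal in replicate 2. Adenosine 38 of SNR49 had 2.33% in replicate 1 and 63.0% in replicate 2.

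Over all listed nucleotides, 57 were in both libraries, which is 12.4% of the 461 of replicate 1 and 15.5% of the 367 of replicate 2. For comparison, replicate 2 listed 6.78% of the members' nucleotides and replicate 1 listed 8.52%. This coverage ranged from 0.546% in SNR33 to 21.1% in SNR3 in replicate 2. In replicate 1 it ranged from 1.45% in SNR84 to 29.4% in SNR9. Pooled coverage, here and for all snoRNAs below, is thus not the sharing expected from the coverage of each RNA. Over the snoRNAs listed in both, 16.8% and 27.4% of positions were shared, where the lists covered 9.37% and 15.3% of the nucleotides. At least 1 nucleotide was shared in 14 of 21 members, beside 82.2% of those snoRNAs. SNR36, SNR43, SNR81, SNR82, SNR84, SNR85 and SNR161 shared none. With 5 nt allowed, 45.8% of the positions of replicate 1 and 55.6% of those of replicate 2 had a neighbour in the other list, beside 53.2% and 67.3% over the snoRNAs listed in both. What an even spread would give with 5 nt allowed was not computed, so these values do not measure agreement. Of the 57 shared nucleotides 24 were adenosines, 23 uridines, 7 guanosines and 3 cytidines. The 3' side held 35 of them, and 28 lay 15 to 59 nt from the 3' end.

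The share of signal that the libraries placed on the same nucleotides, summed as the smaller of both values, was 4.52% for an average member, with a median of 2.66%. It was 9.35% over the snoRNAs listed in both, with a median of 6.62%, and 10.1% over the 8 other box H/ACA snoRNAs. The members with the highest overlap were SNR189 with 14.6%, SNR5 with 12.8% and SNR31 with 12.3%. SNR3 followed with 11.1% and SNR9 with 10.1%. SNR3 shared 12 nucleotides, among them adenosine 58 with 0.758% in replicate 1 and 7.26% in replicate 2 and adenosine 40 with 3.03% and 6.31%. SNR9 shared 10, among them adenosine 97 with 1.48% and 15.1% and adenosine 161, the first base of its longer printed stretch, with 0.985% and 10.8%. SNR5 shared 6, including adenosine 173 with 8% and 4.60%. Only 2 of the 57 nucleotides had at least 5% in both libraries, cytidine 189 of SNR31 and uridine 173 of SNR189.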

How the data were processed

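Crosslinked RNA of 2 Dbp2p iCLIP replicates was analysed from the table deposited for each. The submitters' processing notes name CASAVA, TopHat and sacCer3 and give no versions. Per the file headers the values are normalized counts, and checked on the tables the authors' values are each position's fraction of its gene, summing to 1 within 3e-07 in all 2787 and 3873 gene names. How cDNAs were collapsed, repeats treated and positions filtered was not stated. Depth is unknown, so no interval is given.

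Members were matched by symbol to the RefSeq table of assembly R64, 21 of 21. Coordinates are 1-based. Means weight RNAs equally. Box C/D stands for the 47 annotated snoRNAs outside the 29 box H/ACA RNAs, 44 of them listed in replicate 2.

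The members and lists were chosen with earlier results of these data known. By rule, full values were given for the 6 members with the best worse rank of positions, those with the fewest, those with strongest nucleotides within 5 nt, and those highest or lowest in 3' side share or overlap. SNR8, SNR49, SNR80 and SNR83 complete the account. No test was made, since there is 1 group of 2 replicates. Functions were tested on simulated data. Alternatives weighted positions equally, dropped low values, merged neighbours, left out the middle 20% of each RNA, members or a replicate. Python 3.11.15, numpy 2.4.6, pandas 2.3.3, scipy 1.17.1 and matplotlib 3.10.9 were used.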

Additional observations from a re-analysis of the deposited data

How the results depend on the processing

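No paired analysis was possible because there is 1 group. Of 109 values under alternatives for 15 results, 33 could not pass the limits used, because no position lay in another gene or because leaving out 1 of 2 replicates moves a mean by less than their SD. Of the other 76, 52 moved by less than the SD of the replicates, 1 percentage point of overlap or 1.5 times a count. Counting each position once gave 39.3% for adenosine, 14.7% for guanosine and 34.1% for uridine. Without the lowest values, positions per 100 nt were 4.74, guanosine held 9.43%, and 22 nucleotides were shared with an overlap of 2.67%. Counting positions within 5 nt as 1 gave 2.70 per 100 nt, 8 shared nucleotides and 3 RNAs with strongest nucleotides within 5 nt. With the 12 members of at least 10 positions, there were 10.9 per 100 nt, adenosine held 42.3%, guanosine 12.2% and uridine 34.4%, the overlap was 6.74%, and over 50% of the signal lay on the 3' side in 10, 3 and 3 members (replicate 1, replicate 2 and both). Fewer members enter these counts. Without SNR84 and SNR86 guanosine held 9.71%. Allowing 2 nt gave 140 shared nucleotides and 0 RNAs with strongest nucleotides that close, and 10 nt gave 284 and 2. Leaving out a replicate gave 7 to 18 members with over 50% on the 3' side, a 3' side share of 47.7% to 75.1%, 27.9% to 60.7% at 15 to 59 nt, 21.8% to 40.5% at 20 to 39 nt, a median distance of 37 to 125 nt, 6.35 to 8.70 positions per 100 nt, and 46.2% to 52.1% adenosine, 5.27% to 12.2% cytidine, 10.2% to 10.3% guanosine and 31.3% to 32.5% uridine. In every alternative that kept both replicates the 3' side share was higher in replicate 1, for example 73.3% and 44.7% with the 12 members. Where no cause is stated, the cause was not tested. Read numbers were not given, so no limit from depth is stated.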
